A study of Homo sapiens with 18 samples.

Results

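Co-expression cells were compared with MLL-AF4 cells on day 28, 4 weeks into the experiment, in 6 of the 18 ATAC-seq libraries of the series (3 libraries in each group), across every gene with enough reads to be tested. ATAC-seq uses a transposase that inserts sequencing adapters where DNA is open, and here the reads were counted per gene. All cells were HEK293T, a human embryonic kidney line. MLL-AF4 cells carried a doxycycline-inducible MLL-AF4 construct. Co-expression cells came from a puromycin-selected population with a stable, constitutive MLL-AF4 construct, into which an inducible AF4-MLL construct was then transfected transiently. AF4-MLL cells, used in places for orientation, carried inducible AF4-MLL alone. All groups received doxycycline at 1 µg/ml for 48 h. By this design the day 28 co-expression cells had seen AF4-MLL only in the pulse and MLL-AF4 throughout, while MLL-AF4 cells had been induced only in the pulse. The cell populations also differed in vector, transfections and selection. Past AF4-MLL expression, continuous MLL-AF4 expression and the history of each line cannot be told apart in this contrast. Cells without a fusion construct were not analysed here.

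The t(4;11) translocation of infant and adult leukemia breaks MLL (the gene KMT2A), a histone H3 lysine 4 methyltransferase that binds unmethylated CpG DNA, and joins it to AF4 (AFF1), a scaffold of the super elongation complex that releases paused RNA polymerase II. MLL-AF4 keeps the DNA-binding part of MLL and brings elongation factors to target genes such as the HOXA cluster. The reciprocal AF4-MLL keeps the methyltransferase domain. Whether a short pulse of AF4-MLL leaves lasting marks on chromatin was the question behind the day 28 samples.

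The 6 libraries held 1058754 to 3539937 counts, of which 63.6% to 68.5% lay on mitochondrial genes (65.5% ± 2.6 in co-expression cells and 65.0% ± 0.83 in MLL-AF4 cells, SD, n = 3, exact two-sided permutation test p = 0.9; 0.1 is the smallest p this design allows). Nuclear counts, here all counts on genes other than those of the mitochondrial genome, ran from 376209 to 1116385. The lowest depth belonged to replicate 3 of co-expression cells and the highest to replicate 1 of the same group. The log2 ratio of counts per gene on 82 ribosomal protein genes (open in every cell) to 378 olfactory receptor genes (closed in kidney cells) was 4.48 ± 0.02 in co-expression cells and 4.22 ± 0.08 in MLL-AF4 cells, without overlap (exact permutation test p = 0.1). With 94 keratin-associated protein genes as the closed set the difference was 0.12 instead of 0.26, and the groups overlapped (exact permutation test p = 0.3). Its part in the results below was not tested. All 14 genes chosen for HEK293T cells were covered in each library, and their summed level ran from 407 to 430 CPM in co-expression cells and from 426 to 439 CPM in MLL-AF4 cells. CPM, here and below, is the normalised read count, scaled to the counts on all tested genes (mitochondrial ones included) in counts per 1000000. Of 20 genes of other cell types, 10 had enough reads to be tested, with a sum of 118 to 142 CPM in both groups, and none was called.

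Of 17660 genes tested, 206 were called (1.17%), with 73 higher in co-expression cells (0.413%) and 133 lower (0.753%). A call is an adjusted p-value under 0.05 in edgeR's quasi-likelihood test with Benjamini-Hochberg adjustment. Among the higher genes the median log2 difference was 0.82 (range 0.46 to 3.05), and 19 of 73 were beyond 1. Among the lower genes it was -0.89, and 58 of 133 were beyond -1. Fitted values ran from -0.43 to -3.36, apart from NCKAP5-IT1, which had no reads in any co-expression library and so has no defined fold. Over all tested genes the median was 0.01. The 3 libraries of one group lay wholly apart from those of the other for 70 of the 73 higher and 129 of the 133 lower genes, against 16% of all tested genes (7.75% with co-expression cells above and 8.23% with them below). The study's own thresholds (unadjusted p under 0.05, absolute log2 over 1, mean count over 2) were applied here to the edgeR values of the tested genes, while the study used DESeq2. They picked 227 genes (1.29%), 69 higher (0.391%) and 158 lower (0.895%). By gene type, 53 protein-coding genes were higher and 114 lower (of 13966 tested), 8 long noncoding RNA genes were higher and 3 lower (of 1025), and 5 miRNA genes were lower and none higher (of 28). All 5 are MIR6724 or MIR3648 genes inside near-identical ribosomal repeat copies on chromosome 21, which can share reads. With library size alone in place of TMM scaling the split was 23 higher to 77 lower. Each library carried weight: the count was 59 without co-expression replicate 1, 93 without replicate 2 and 131 without replicate 3, and 131, 83 and 104 without MLL-AF4 replicates 1, 2 and 3. DESeq2's Wald test called 23 genes, 7 higher and 16 lower, all of them among the 206.

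The calls were not spread evenly along the genome. When the tested genes were put in order and cut into 298 blocks of about 50 neighbours, 4 stretches of blocks stood out, on the long arm of chromosome 15 (higher), the short arm of chromosome 17, the distal long arm of chromosome 1 and the end of chromosome 22 (all lower). They were picked from the day 28 differences themselves, so their day 28 values are a description. Inside them, the block nearest to 0 had a median of -0.20 (on chromosome 1), and the first block of chromosome 22, at -0.28 with 3 calls, was just left out. Together they held 947 tested genes, of which 35 were called higher and 67 lower (10.8%), against 38 higher and 66 lower among the 16713 other tested genes (0.622%). The latter include 2186 genes without a position in the reference (12 higher and 9 lower), which could lie anywhere, and the 14527 placed outside had 26 higher and 57 lower calls (0.571%). With library sizes taken within each chromosome, its stretch included, 26 genes of the 4 stretches were called, in place of 35 higher and 67 lower. Single genes of a stretch are therefore to be read beside the shift of their neighbours. In ATAC-seq counts, more copies of a DNA segment, more cells that carry it open and wider opening in each cell cannot be told apart.

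**Figure D1:**
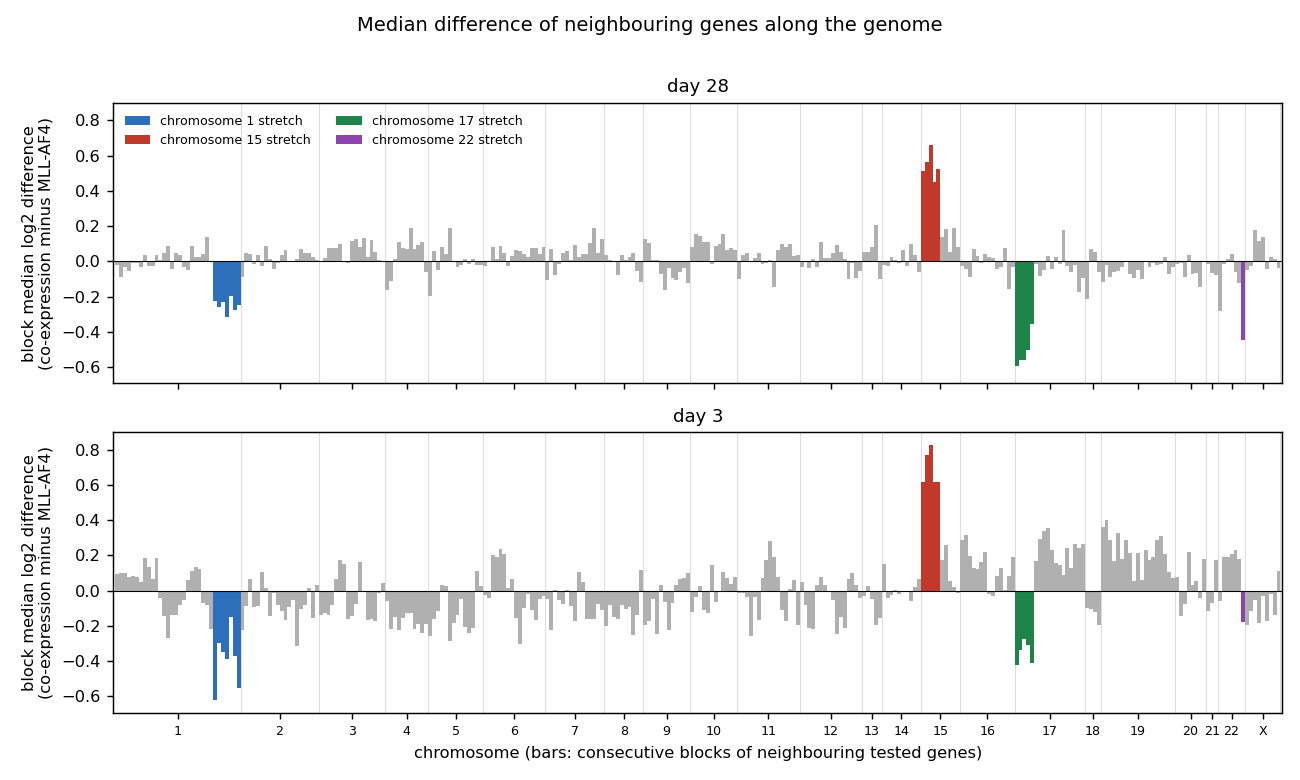
Median log2 difference (y axis, co-expression minus MLL-AF4 cells) of consecutive blocks of about 50 neighbouring tested genes, in chromosome order (x axis), on day 28 (top) and day 3 (bottom), with the 4 stretches in colour. The chromosome 15 stretch stands above 0, and the stretches on chromosomes 1, 17 and 22 below it, on both days.

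On chromosome 15, the stretch ran from 22494837 to 66333898 (GRCh38, 275 tested genes). There 33 genes were called higher and none lower, 263 of 275 lay above 0, and the median log2 difference was 0.55. Its genes took 1.11%, 1.17% and 1.16% of nuclear counts in the 3 co-expression libraries and 0.807%, 0.791% and 0.801% in the 3 MLL-AF4 libraries. All 3 co-expression libraries stood above all MLL-AF4 libraries, and the AF4-MLL libraries of day 28 (0.751% to 0.779%) lay just below the latter. The median was 0.55 in the third of genes with the fewest counts and 0.55 in the third with the most. The 302 genes of the stretch too sparse to be tested were higher as well, by 0.41 (log2 of their summed share). Chromosome 15 as a whole differed by 0.28 ± 0.02 (SE, log2 of its share of nuclear counts, adjusted p = 4.05e-09, limma over 23 chromosomes). It was 1 of 4 chromosomes called (17.4%), and the 1 called higher (4.35%).

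SERF2 led the chromosome 15 genes. It encodes a small protein that promotes protein aggregation and lies at chr15:43777086-43796089. It had 64.9, 76.0 and 77.1 CPM in co-expression cells and 34.6, 41.3 and 33.1 CPM in MLL-AF4 cells. The lowest co-expression library was above the highest MLL-AF4 library, a log2 difference of 0.94 ± 0.15 (SE, adjusted p = 5.91e-06, edgeR). SNX22, a sorting nexin of the endosome, rose by 0.85 ± 0.17 (adjusted p = 0.000994, edgeR), CCNDBP1, a binding partner of D-type cyclins, by 1.03 ± 0.21 (adjusted p = 0.0012) and RPS27L, a ribosomal protein paralogue, by 0.92 ± 0.19 (adjusted p = 0.00133). The last 2 lost the call under DESeq2 (1.03 and 0.89), CCNDBP1 without co-expression replicate 1 (0.91) and RPS27L without MLL-AF4 replicate 2 (0.78). Also called higher there, and picked here for their known roles after their values were seen, were B2M (1.12), the light chain of MHC class I, LEO1 (1.61), a subunit of the PAF1 elongation complex, MGA (0.76), a partner of MAX, and KNL1 (0.94) and NUSAP1 (0.78) of the mitotic kinetochore and spindle. DESeq2 called none of these picked genes, and only LEO1 among them kept the edgeR call without each of the 6 libraries. With library sizes taken from the tested genes of chromosome 15 alone, SERF2 was still called (log2 0.60) and SNX22 (0.51), CCNDBP1 (0.69) and RPS27L (0.58) were not. These sizes include the stretch itself (275 of the 549 tested genes of the chromosome), so they are not those of its rest.

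On the short arm of chromosome 17, from 142789 to 21551678 (260 tested genes), 41 genes were called lower and none higher, 250 of 260 lay below 0, and the median was -0.52. These genes took 0.923%, 0.980% and 0.958% of nuclear counts in co-expression cells against 1.36%, 1.35% and 1.37% in MLL-AF4 cells. No library of the first group reached any of the second. The median was -0.65 in the third of genes with the fewest counts and -0.49 in the third with the most. The 253 untested genes of the arm were lower by 0.55 on the log2 scale of their summed share. Chromosome 17 as a whole fell by 0.14 ± 0.02 (adjusted p = 7.2e-06, limma).

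ULK2, a kinase that starts autophagy, stood first among them. It had 13.2, 16.2 and 13.3 CPM in co-expression cells and 36.3, 30.7 and 32.2 CPM in MLL-AF4 cells. These groups were far apart, with a log2 difference of -1.19 ± 0.22 (adjusted p = 0.000226, edgeR). NAA38, an auxiliary subunit of an N-terminal acetyltransferase, fell by 0.79 ± 0.15 (adjusted p = 0.000316), although it was not called without co-expression replicate 1 (log2 -0.63). Called lower on the same arm, again picked for their roles after their values were seen, were the stress kinase kinase MAP2K4 (-1.59), PFN1 (-0.86), which binds actin monomers, the translation factor EIF5A (-0.73), the lipid regulator SREBF1 (-0.59) and MNT (-0.61), a repressor of the MAX network. Of these picked genes DESeq2 called EIF5A alone, and none kept the edgeR call without each of the 6 libraries.

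On chromosome 1, from 183023420 to 248930191 (357 tested genes), 16 genes were called lower and none higher, with a median of -0.25, and 288 of 357 lay below 0. The shares were 1.44% to 1.54% of nuclear counts in co-expression cells and 1.77% to 1.83% in MLL-AF4 cells. CAPN2, the catalytic subunit of m-calpain, had 21.2, 21.2 and 30.6 CPM in co-expression cells and 39.6, 51.3 and 53.7 CPM in MLL-AF4 cells, and its log2 difference was -1.08 ± 0.18 (adjusted p = 1.66e-05, edgeR), without overlap. In the 1q44 segment at the end of the arm, 2 of 16 tested genes were called lower and none higher (0.753% and 0.413% of all genes, list median -0.15). They were COX20, an assembly factor of cytochrome c oxidase (-0.57 ± 0.14, adjusted p = 0.00973), and HNRNPU, an RNA-binding protein of the nuclear scaffold (-0.47 ± 0.12, adjusted p = 0.0163). Both lost the call without co-expression replicate 1 (-0.58 and -0.46), without co-expression replicate 2 (-0.45 and -0.44) under DESeq2 (-0.56 and -0.47) and with library size only (-0.60 and -0.52). COX20 also lost it without MLL-AF4 replicate 2 (-0.52), and HNRNPU without MLL-AF4 replicates 1 (-0.41) and 3 (-0.47). The share of chromosome 1 as a whole was not called (0.00 ± 0.05, adjusted p = 0.991, limma), but it was called lower without the 1% of genes with the highest counts (-0.05, adjusted p = 0.000168) and with protein-coding genes only (-0.05, adjusted p = 9.6e-05). That share was 24.9% of nuclear counts in co-expression replicate 1 and 21.9% in replicate 2, where mitochondrial genes took 68.5% and 63.6% of all counts. What links the 2 shares was not tested.

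The last stretch, at the end of chromosome 22 from 44752575 to 50799637 (55 tested genes), had 10 genes called lower and 2 called higher, with a median of -0.45. Its shares were 0.157% to 0.159% of nuclear counts in co-expression cells and 0.2005% to 0.218% in MLL-AF4 cells. MAPK12, the gamma isoform of p38 MAP kinase, had 17.4, 21.2 and 18.6 CPM in co-expression cells and 38.7, 39.6 and 35.8 CPM in MLL-AF4 cells, a log2 difference of -1.01 ± 0.20 (adjusted p = 0.000554, edgeR). The protein kinase PIM3 (-1.02), the synaptic scaffold SHANK3 (-1.02) and the phosphatase subunit PPP6R2 (-1.19) were also called lower. PPP6R2 kept the call under DESeq2 and without each of the 6 libraries. PIM3 and SHANK3 lost it under DESeq2 and without at least 1 library. The 25 untested genes of the stretch, with few counts, had a log2 difference of -1.05 in summed share, against -0.39 for the tested ones. Chromosome 22 as a whole fell by 0.12 ± 0.02 (adjusted p = 0.000141, limma).

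**Figure D2:**
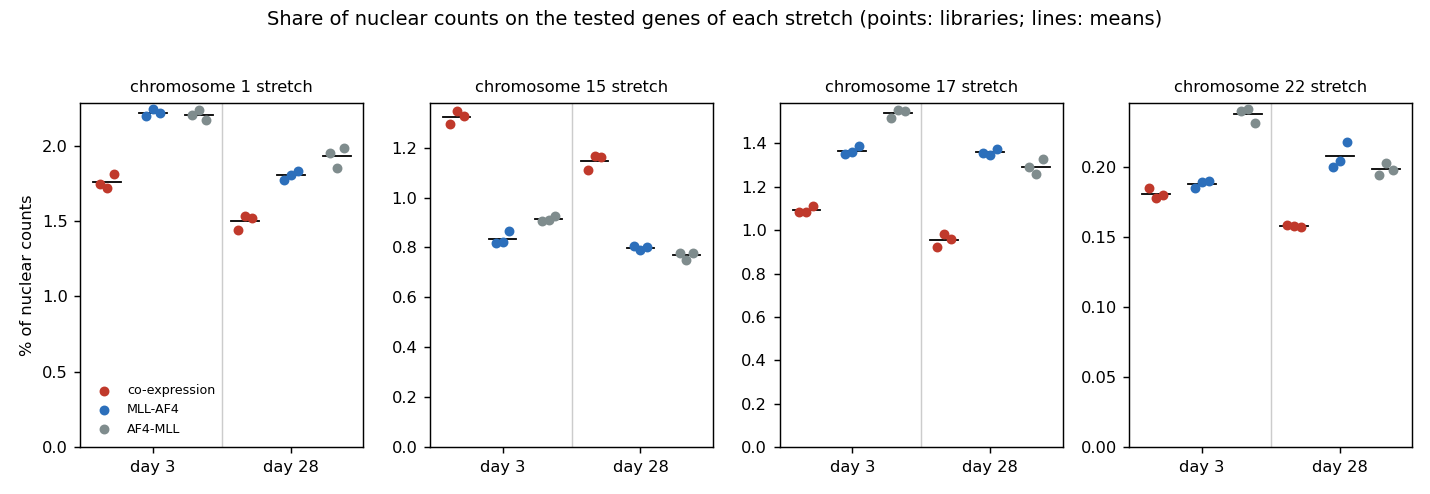
Percent of nuclear counts on the tested genes of each of the 4 stretches (y axis, from 0), for the 3 libraries of each construct setting on day 3 and day 28 (points), with group means as lines. On day 28 the co-expression libraries lie apart from the other 6 in every panel, at 1.11% to 1.17% on chromosome 15 and at 0.923% to 0.980% on chromosome 17.

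The 2 genes called higher on chromosome 22 were neighbours, MIRLET7BHG and PRR34-AS1, and they ran against the stretch around them. MIRLET7BHG (chr22:46085997-46113928) is the host gene of let-7a-3 and let-7b, miRNAs that repress growth genes such as RAS and LIN28 and are low in many leukemias. The mature miRNAs encoded within it are shown because they are the known products of this host gene, and whether the counted reads cover their positions is not known. Capitals mark the seed (bases 2 to 8), which pairs with target mRNAs, and the sequences are from RefSeq (GRCh38.p14, plus strand).
hsa-let-7a-5p (chr22:46112752-46112773): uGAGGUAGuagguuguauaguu
hsa-let-7b-5p (chr22:46113691-46113712): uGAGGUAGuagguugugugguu
hsa-miR-4763-3p (chr22:46113624-46113647): aGGCAGGGgcuggugcugggcggg
Both let-7 miRNAs carry the same seed and differ at 2 of 22 bases, A17G and A19G counted from the 5′ end with the let-7a base first, while miR-4763-3p carries another. The count table holds the host gene and not these 3 miRNA genes, so no count is given for them.

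MIRLET7BHG had 34.3, 33.6 and 35.9 CPM in co-expression cells and 9.06, 12.8 and 16.1 CPM in MLL-AF4 cells. The co-expression libraries lay close together and all above the others, a log2 difference of 1.44 ± 0.23 (adjusted p = 5.91e-06, edgeR). PRR34-AS1, a noncoding gene just upstream, had 19.7, 16.2 and 14.6 CPM against 3.30, 5.02 and 6.27 CPM (1.83 ± 0.35, adjusted p = 0.000347). DESeq2 called MIRLET7BHG and not PRR34-AS1, and both kept the edgeR call without each of the 6 libraries. Of 8 tested genes in a list of this locus, these 2 were called higher and none lower (0.413% and 0.753% of all genes, list median 0.23). The other 6 ranged from -0.66 (WNT7B) to 0.55 (LINC00899). The 250 bases upstream of MIRLET7BHG follow, with CG pairs, the sites that MLL's CXXC domain reads when unmethylated, in capitals.
MIRLET7BHG (chr22:46085747-46085996, plus strand): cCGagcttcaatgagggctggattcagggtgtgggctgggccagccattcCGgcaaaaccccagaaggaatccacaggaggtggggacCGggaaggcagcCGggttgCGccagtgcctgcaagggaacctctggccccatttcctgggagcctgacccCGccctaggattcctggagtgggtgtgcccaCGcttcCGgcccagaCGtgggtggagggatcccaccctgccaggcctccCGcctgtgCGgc
This window held 11 CG pairs, the median of 34943 RefSeq promoter windows of the same length, of which 50.1% held at least as many.

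Among the genes placed outside the stretches, RUNX1T1 and HOXB5 were called lower in co-expression cells. RUNX1T1, a corepressor known as ETO and a partner in the t(8;21) fusion of acute myeloid leukemia, had 10.8, 7.47 and 15.95 CPM in co-expression cells and 31.3, 28.5 and 23.3 CPM in MLL-AF4 cells. Its log2 difference was -1.40 ± 0.25 (adjusted p = 8.97e-05, edgeR). In the list of RUNX and CBF genes it was the 1 gene called of 7 tested (median -0.39), against 1.17% of all genes. RUNX1 itself had a log2 difference of -0.51 ± 0.17 (adjusted p = 0.112). HOXB5, a homeobox gene of the HOXB cluster on the long arm of chromosome 17, had 12.2, 16.8 and 11.96 CPM against 34.6, 35.7 and 24.2 CPM. It fell by 1.21 ± 0.23 (adjusted p = 0.000249), and no library of one group overlapped the other, as the rule for naming it required.

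TPBGL, which encodes a leucine-rich repeat membrane protein, had 12.2, 10.6 and 9.30 CPM against 24.7, 35.1 and 33.1 CPM and fell by 1.49 ± 0.25 (adjusted p = 1.66e-05, edgeR). IER5, an immediate early gene induced by growth factors and stress, lies just outside the chromosome 1 stretch at chr1:181088700-181092900. It had 25.9, 23.04 and 22.6 CPM against 46.2, 45.2 and 51.0 CPM and fell by 0.95 ± 0.18 (adjusted p = 0.000249). In both genes every co-expression library lay below every MLL-AF4 library. TPBGL lost the call under DESeq2 (-1.52). The windows upstream of ULK2, TPBGL and IER5 are shown with CG pairs in capitals, since promoters are where ATAC-seq reads of a gene gather.
ULK2 (chr17:19867937-19868186, minus strand): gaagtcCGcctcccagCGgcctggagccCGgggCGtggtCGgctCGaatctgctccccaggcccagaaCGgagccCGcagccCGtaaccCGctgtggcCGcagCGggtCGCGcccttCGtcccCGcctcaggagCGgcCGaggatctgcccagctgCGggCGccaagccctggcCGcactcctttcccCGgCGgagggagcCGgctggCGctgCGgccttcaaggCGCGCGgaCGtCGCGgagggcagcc
TPBGL (chr11:75240524-75240773, plus strand): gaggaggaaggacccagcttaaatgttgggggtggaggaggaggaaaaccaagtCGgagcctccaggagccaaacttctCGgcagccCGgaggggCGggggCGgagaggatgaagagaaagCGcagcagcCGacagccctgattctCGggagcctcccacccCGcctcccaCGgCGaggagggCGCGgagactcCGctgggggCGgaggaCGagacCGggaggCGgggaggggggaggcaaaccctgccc
IER5 (chr1:181088450-181088699, plus strand): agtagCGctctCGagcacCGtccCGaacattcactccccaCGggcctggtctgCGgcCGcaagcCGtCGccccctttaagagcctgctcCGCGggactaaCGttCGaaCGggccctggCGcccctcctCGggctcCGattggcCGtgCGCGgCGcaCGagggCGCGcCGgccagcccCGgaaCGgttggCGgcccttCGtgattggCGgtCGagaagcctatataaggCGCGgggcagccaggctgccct
They held 32, 18 and 33 CG pairs, and 9.51%, 36.7% and 8.14% of all windows held at least as many. No property of promoters was compared across the called genes, because fewer than 80% of the tested genes have a window in this reference.

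KMT2A was the 1 gene called of 23 tested in the list of MLL and its COMPASS partners (1 higher, 0 lower, against 0.413% and 0.753% of all genes, list median -0.06). It had 79.9, 59.8 and 62.5 CPM in co-expression cells and 47.0, 43.5 and 45.6 CPM in MLL-AF4 cells, without overlap (0.62 ± 0.15, adjusted p = 0.00723, edgeR). AF4-MLL cells of day 28 were higher than either, with 98.98, 99.99 and 83.01 CPM. The fusion constructs contain KMT2A and AFF1 sequence, so reads from a construct and from the chromosomal gene cannot be told apart. The call was lost without co-expression replicate 1 (log2 0.43), without MLL-AF4 replicate 2 (0.58) under DESeq2 (0.60) and with library size only (0.54). AFF1, the AF4 gene, had 55.9, 56.0 and 62.5 CPM against 40.4, 53.0 and 58.2 CPM, and its difference of 0.17 ± 0.15 was not called (adjusted p = 0.7). The window upstream of KMT2A, shown because MLL is the protein the fusions are built from, held 31 CG pairs, and 10.8% of windows held at least as many.
KMT2A (chr11:118436242-118436491, plus strand): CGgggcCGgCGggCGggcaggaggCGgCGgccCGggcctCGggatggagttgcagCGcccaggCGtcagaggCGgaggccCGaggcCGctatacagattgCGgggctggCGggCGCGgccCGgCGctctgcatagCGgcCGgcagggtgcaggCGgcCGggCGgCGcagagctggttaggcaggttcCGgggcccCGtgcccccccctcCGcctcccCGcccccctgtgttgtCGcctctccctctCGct

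Of 25 tested genes known as targets of MLL fusions, 0 were called by edgeR or DESeq2 in either direction (1.17% of all genes were), 6 had an unadjusted p under 0.05 (11.8% of all genes did), and the list median was -0.11. LMO2, a bridging factor of blood cell transcription complexes, had 6.58, 11.2 and 5.32 CPM against 12.4, 17.3 and 18.8 CPM (-1.01 ± 0.31, adjusted p = 0.0795). HOXA9, the target most tied to this leukemia and named here for that reason, had a difference of 0.31 ± 0.17 (adjusted p = 0.455). Of 35 tested HOX genes 1 was called, HOXB5, against 1.17% of all genes. In the HOXB cluster 8 of 9 lay below 0 (median -0.26), with HOXB6 at -0.54 ± 0.16 (adjusted p = 0.0551) and HOXB3 at -0.48 ± 0.16 (adjusted p = 0.0965), and in the HOXA cluster 8 of 11 did (median -0.23). In the HOXC cluster 5 of 9 lay below 0 (median -0.01), and in the HOXD cluster 4 of 6 did (median -0.21).

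Of 22 tested genes of AF4 and the super elongation complex, 0 were called by edgeR and 1 had an unadjusted p under 0.05 (1.17% and 11.8% of all genes, list median 0.09). This was ELL3, an elongation factor in the chromosome 15 stretch (0.60 ± 0.19, adjusted p = 0.0965). Endoplasmic reticulum chaperones and folding factors gave 0 calls of 21 tested and 8 at an unadjusted p under 0.05, with 13 of 21 above 0. The pair with the smallest p differed in sign. CRELD2 had -0.58 ± 0.18 (adjusted p = 0.078) and lies in the chromosome 22 stretch, and PDIA3 had 0.79 ± 0.28 (adjusted p = 0.166) and lies in that of chromosome 15.

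Among 28 tested genes of cell adhesion and migration, 1 was called higher and 1 lower (0.413% and 0.753% of all genes, list median -0.20). ITGB8, an integrin chain that activates TGF-beta, had 44.7, 37.4 and 46.5 CPM against 25.5, 33.5 and 16.1 CPM (0.69 ± 0.18, adjusted p = 0.0303, edgeR). VCAM1, an adhesion receptor for leukocytes, had 3.29, 3.11 and 7.98 CPM against 8.24, 15.6 and 8.06 CPM (-1.46 ± 0.40, adjusted p = 0.0357). Both calls were fragile: ITGB8 was called in 7 of 16 alternative analyses and VCAM1 in 7 of 15, and both were lost without co-expression replicate 1 (0.62 and -1.24). ITGB8 was also lost without MLL-AF4 replicates 1 (0.67) and 3 (0.49) and without co-expression replicate 3 (0.66), and VCAM1 without MLL-AF4 replicate 2 (-0.99) and co-expression replicate 2 (-1.29).

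No gene was called by edgeR among 20 of the G1 phase (3 at an unadjusted p under 0.05), 13 of B cells (2), 10 of T cells (1), 17 of kidney development (2), 14 of HEK293T cells (1) and 36 mitochondrial genes (0). DESeq2 called none of them either. Over all genes, edgeR called 1.17%, and 11.8% had an unadjusted p under 0.05. In these lists the smallest p belonged to CDC25A, a phosphatase of the G1 to S transition (-0.72 ± 0.22, adjusted p = 0.079), the B cell factor EBF1 (-0.81 ± 0.32, adjusted p = 0.242), the T cell factor BCL11B (-1.27 ± 0.44, adjusted p = 0.138), the kidney gene CITED1 (-0.73 ± 0.23, adjusted p = 0.0909) and ACTB (-0.32 ± 0.14, adjusted p = 0.336). List medians ran from -0.13 in B cell genes to 0.13 in T cell genes.

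**Figure D3:**
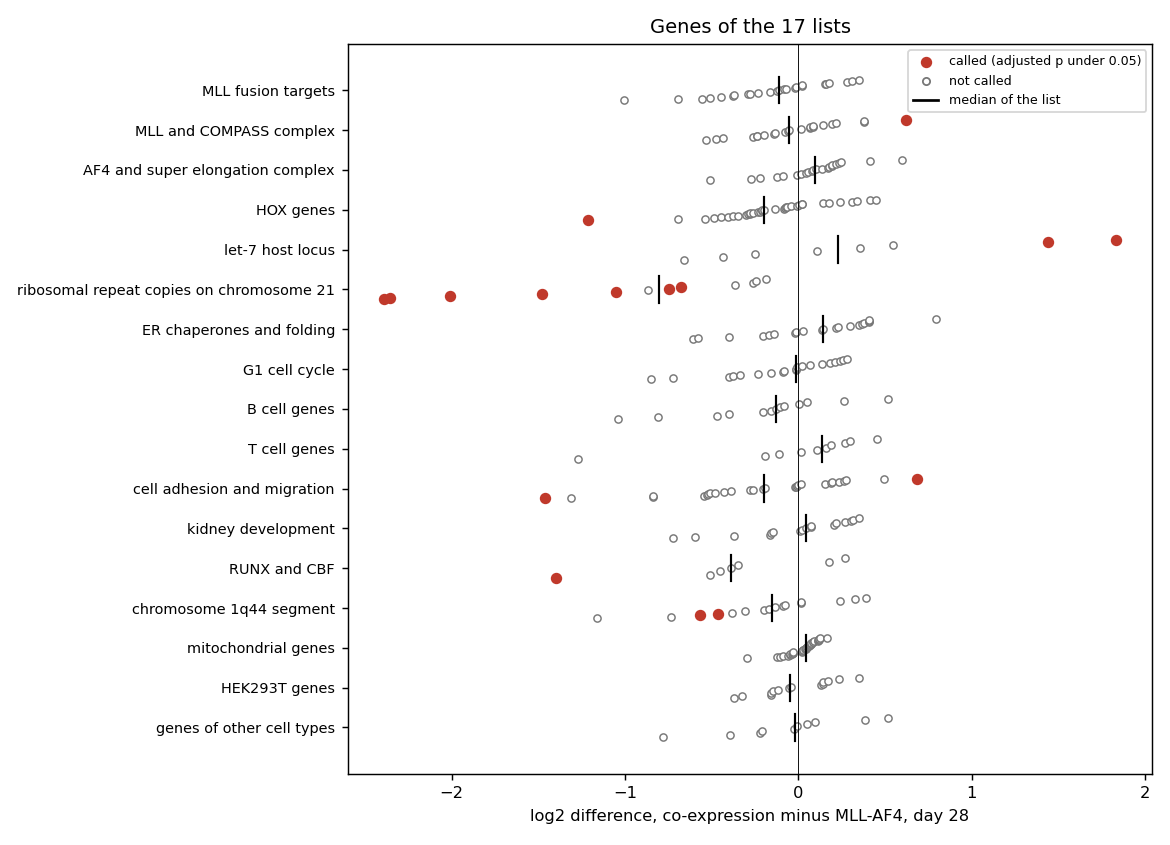
Log2 difference of every tested gene of the 17 lists (x axis, co-expression minus MLL-AF4 cells on day 28), with called genes filled and the median of each list as a line. All 12 tested genes of the ribosomal repeat copies on chromosome 21, which are near-identical and can share reads, lie below 0, from -0.19 to -2.39. The MLL fusion targets spread from -1.01 to 0.35 with none called.

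Ribosomal RNA is made from tandem repeats on the short arms of the acrocentric chromosomes, and copies of the repeat are annotated on chromosome 21 with the miRNA genes MIR6724 and MIR3648 inside them. Of 12 tested genes of these copies, 7 were called lower and 0 higher (0.753% and 0.413% of all genes), and all 12 lay below 0 (median -0.81). MIR6724-4 had 3.29, 3.11 and 7.98 CPM in co-expression cells and 10.7, 24.0 and 27.8 CPM in MLL-AF4 cells (-2.35 ± 0.37, adjusted p = 5.91e-06, edgeR). MIR6724-1 had 0.940, 7.47 and 3.99 CPM against 17.3, 20.6 and 23.3 CPM (-2.39 ± 0.37, adjusted p = 5.91e-06), and MIR6724-3 fell by 2.01 ± 0.36 (adjusted p = 9.21e-05). MIR6724-1, MIR6724-3 and MIR6724-4 kept the call without each of the 6 libraries, with MIR6724-1 ranging from -3.47 to -1.67. Of the 7 called genes of these copies, DESeq2 called only FP671120.1. The mature product of MIR6724-4 is given with its seed in capitals, and 2 genes of the reference carry this same mature sequence.
hsa-miR-6724-5p (MIR6724-4, chr21:8432540-8432562, plus strand): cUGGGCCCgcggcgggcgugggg
Because the copies are near-identical, a read cannot be placed on 1 of them with certainty, and these calls are uncertain for single copies. For the same reason the 12 genes are not 12 separate findings. The longer repeat transcripts moved less, with FP671120.1 at -0.75 ± 0.15 (adjusted p = 0.000994) and FP671120.4 at -0.37 ± 0.12 (adjusted p = 0.087). In AF4-MLL cells of day 28 MIR6724-1 had 5.21, 11.1 and 11.9 CPM, between the other groups on average. The share of chromosome 21 fell by 0.08 ± 0.03 (adjusted p = 0.0435, limma), a call that was lost with protein-coding genes only (-0.04, adjusted p = 0.0918).

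Genes named only by a clone were among the strongest differences. AL121672.1 had 11.3, 14.9 and 11.96 CPM in co-expression cells and only 1, 2 and 3 reads in the MLL-AF4 libraries, and was at least 5.59-fold higher (against a floor of 3 counts in each library; adjusted p = 1.38e-05, edgeR). AC010890.1 was the opposite, with 1, 2 and 1 reads in co-expression cells against 9.06, 15.1 and 3.58 CPM, at least 3.81-fold lower (adjusted p = 3.33e-05). AC092718.7 rose by 1.66 ± 0.29 (adjusted p = 3.54e-05), AC012379.2 by 0.81 ± 0.16 (adjusted p = 0.000994) and AC010619.2 by 0.59 ± 0.12 (adjusted p = 0.000863). AC010619.2 was highest in AF4-MLL cells of day 28, at 208 ± 14 CPM, then in co-expression cells at 142 ± 11 CPM and MLL-AF4 cells at 95.7 ± 8.6 CPM (SD, n = 3 each), and it was not called with library size only (log2 0.54). AC012379.2 was not called without co-expression replicate 1 (log2 0.71). DESeq2 called AC010619.2 and AC012379.2, and did not call AL121672.1, AC010890.1 or AC092718.7. AL121672.1, AC010890.1 and AC092718.7 kept the edgeR call without each of the 6 libraries.

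The same contrast on day 3, at the end of the pulse, shares no library with day 28 and called 319 genes (1.81%), 159 higher (0.9%) and 160 lower (0.906%). Nuclear counts on day 3 were 591071 to 662727 in co-expression cells and 352673 to 398640 in MLL-AF4 cells. The log2 ratio of ribosomal protein to olfactory receptor genes was 5.15 to 5.19 and 4.62 to 4.75, without overlap. The part of both differences in the day 3 and shared counts was not tested. Of the 206 genes called on day 28, 37 were called on day 3 in the same direction (20 higher and 17 lower), which is 17.96% of the day 28 calls and 11.6% of the day 3 calls, and 0 were called in opposite directions. The sign was the same on both days for 166 of the 206 (80.6%), against 54.7% of all tested genes. The 37 included 13 genes of the chromosome 15 stretch, 4 of chromosome 17 and 4 of chromosome 1, each in the direction of its stretch. The 2 genes from chromosome 22 were MIRLET7BHG and PRR34-AS1, higher against their stretch, and none of its 10 lower genes was called on day 3. All 4 stretches, picked on day 28, had medians of the same sign on day 3, at 0.66 on chromosome 15 (47 genes called higher), -0.36 on chromosome 17 (15 lower), -0.37 on chromosome 1 (36 lower) and -0.18 on chromosome 22 (3 higher and 1 lower). On chromosome 22 the day 3 libraries overlapped in their share of nuclear counts, and its log2 difference was -0.06. Chromosomes 17 and 22 as wholes were higher in co-expression cells on day 3 (0.12, adjusted p = 2.11e-05, and 0.17, adjusted p = 4.79e-07, limma), and the plot of block medians shows the long arm of chromosome 17 above 0 on that day. They were not alone, as chromosomes 16 (0.18), 19 (0.23) and 20 (0.07), which hold no stretch, were also called higher on day 3. Chromosomes 4, 5, 8, 13 and 18, again without a stretch, were called lower. The count of 37 was 18 without day 28 co-expression replicate 1, 24 without replicate 2, 19 without day 28 MLL-AF4 replicate 2, and 23, 23 and 22 without day 3 MLL-AF4 replicates 1, 2 and 3.

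Of the other 14 genes called on both days, 8 are placed outside the stretches and 6 are clone-named genes without a position. RUNX1T1 had a log2 difference of -1.62 ± 0.27 on day 3 and TPBGL of -1.24 ± 0.27. Within the chromosome 22 stretch, MIRLET7BHG (1.29 ± 0.25) and PRR34-AS1 (3.00 ± 0.47) were higher on day 3 too. Of the genes without a position, so were AL121672.1 and AC010619.2, and AC010890.1 was lower. At both times GNRH1, the gonadotropin-releasing hormone gene (1.78 on day 3 and 1.98 on day 28), and the MAP kinase phosphatase DUSP2 (-1.52 and -2.19) were on the same side, as were the calcium sensor VSNL1 (-1.33 and -1.55) and TMEFF2 (-1.11 and -0.83), a membrane protein with follistatin-like domains. The last 4 were picked after their values were seen, and DESeq2 called none of them on day 28. GNRH1 and DUSP2 kept the day 28 edgeR call without each of the 6 libraries, and VSNL1 and TMEFF2 did not. By contrast HOXB5 (-0.31 ± 0.28), CAPN2 (-0.45 ± 0.21) and IER5 (-0.44 ± 0.18) were not called on day 3, although for none of the 3 was the change between days itself called.

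**Figure D4:**
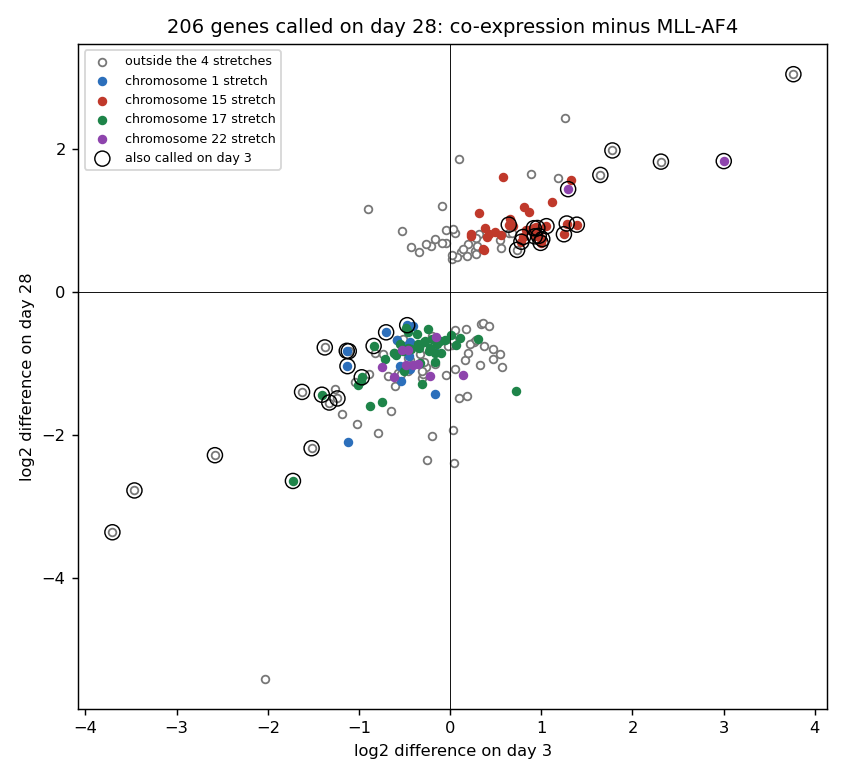
Log2 differences of the 206 genes called on day 28, on day 3 (x axis) and day 28 (y axis), coloured by stretch and ringed when also called on day 3. Of these genes 166 lie in the quadrants of equal sign, and all 37 ringed points do.

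The change of the difference from day 3 to day 28 was called for 41 genes (0.232%; 9.73% had an unadjusted p under 0.05), 18 in the positive and 23 in the negative direction, of which 9 were also called on day 28 and 21 on day 3. Without day 3 MLL-AF4 replicates 1 or 2 this count was 11 or 9, without day 28 MLL-AF4 replicates 1 or 3 it was 19 and 19, and without day 28 co-expression replicates 1 or 2 it was 14 and 26. Leaving out day 3 co-expression replicate 1 gave 25. MIR6724-1 was among them: its difference was 0.05 on day 3 and -2.39 on day 28 (adjusted p = 0.0481, edgeR). The change was not called for its near-identical copies MIR6724-4 (adjusted p = 0.114), MIR6724-3 (0.208) and MIR6724-2 (0.314), so it is uncertain for the single copy.

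Set beside AF4-MLL cells of day 28, which share the co-expression libraries with the main contrast and are therefore no independent evidence, co-expression cells differed at 299 genes (1.69%) and gave medians of 0.58 on chromosome 15, -0.47 on chromosome 17, -0.39 on chromosome 1 and -0.42 on chromosome 22. SERF2 differed from AF4-MLL cells by 0.54 (adjusted p = 0.0139, edgeR), MIRLET7BHG by 1.13 (adjusted p = 0.000205) and RUNX1T1 by -1.60 (adjusted p = 1.3e-06). KMT2A went the other way, at -0.45 (adjusted p = 0.0295), and HOXB5 (-0.52, adjusted p = 0.332) was not called, with AF4-MLL cells at 19.7 ± 2.7 CPM lying between 13.7 ± 2.7 in co-expression and 31.5 ± 6.4 in MLL-AF4 cells (SD, n = 3).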

How the data were processed

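The deposited table holds raw counts, whole numbers of ATAC-seq reads per gene for 54425 genes and 18 libraries. Per the labels, the authors used bcl2fastq, Bowtie2, HTSeq and the build GRCh38. Versions, the region counted per gene, strand setting and the treatment of duplicates and multiply mapped reads are not given in the sources used here. Genes that overlap can share reads. Symbols were matched to RefSeq (GRCh38.p14) for position and type, for 35417 genes of the table and 87.6% of those tested.

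Counts were fitted in R 4.3.3 with edgeR 4.0.16 (TMM, filterByExpr with a minimum count of 10 and a minimum total of 15, quasi-likelihood F tests), with all 18 libraries in 6 groups sharing 1 estimate of the spread, and Benjamini-Hochberg adjustment over 17660 genes. Chromosome shares used limma 3.58.1, alternatives DESeq2 1.42.0. The pipeline was tested on simulated data. A stretch was a run of blocks with a median beyond 0.2 in 1 direction, bridging at most 1 block short of it, with at least 4 calls in all. The study names 3 biological replicates without saying whether they were separate transfections, so p-values measure the spread between these libraries.

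The genes named were KMT2A, AFF1 and MIF; the 10 calls per direction with the smallest adjusted p (mean count at least 10, no overlap); called members of each list (at most 4) or else the 2 with the smallest p; up to 3 calls on each called chromosome; 6 called on both days; and 4 interaction calls. MIF was not called (0.09 ± 0.16, adjusted p = 0.892). The contrast, gene lists and rules were chosen with earlier results of these data known.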

Additional observations from a re-analysis of the deposited data

Results flagged for a closer look

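For 6 of the genes named here the difference between co-expression and MLL-AF4 cells itself changed between day 3 and day 28 in edgeR's quasi-likelihood test of the interaction, adjusted over all genes tested. MIR6724-1 changed by -2.44 ± 0.62 (SE, log2, adjusted p = 0.0481), from 0.05 on day 3 to -2.39 on day 28, while its near-identical copies were not called. ACTB, the cytoskeletal actin gene, changed by -0.97 ± 0.22 (adjusted p = 0.0173): it was higher in co-expression cells on day 3 (0.64, adjusted p = 0.0157), with 84.7, 55.2 and 71.7 CPM against 40.2, 36.8 and 59.0 CPM, and its difference on day 28 was -0.32 (adjusted p = 0.336). Its groups overlapped on day 3 and not on day 28.

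The ribosomal repeat transcripts FP671120.4 (-1.15 ± 0.17, adjusted p = 1.84e-06), FP236383.3 (-1.06 ± 0.17, adjusted p = 2.02e-05) and FP671120.3 (-0.88 ± 0.17, adjusted p = 0.00242) changed in the same direction. Each was higher in co-expression cells on day 3 (0.79, 0.80 and 0.64) and had a difference below 0 on day 28 (-0.37, -0.26 and -0.25, none called). They are near-identical copies and can share reads, so they are not separate findings. SETMAR, which joins a histone methyltransferase to a transposase, changed by 1.84 ± 0.36 (adjusted p = 0.00283), from -1.28 ± 0.28 on day 3 (adjusted p = 0.0021) to 0.56 ± 0.23 on day 28 (adjusted p = 0.28).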

How the results depend on the processing

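The 206 calls of day 28 (73 higher, 133 lower) were 100 (23 and 77) with library size only, 103 (39 and 64) with no filter, 86 (24 and 62) with library sizes within each chromosome, 23 (7 and 16) by DESeq2's Wald test and 58 (19 and 39) when refitted without the genes of the 4 stretches, an alternative chosen after seeing the data. Leaving out 1 library gave 59 to 131 calls (26 to 45 higher, 25 to 86 lower), and 26 calls held without each of the 6. No call changed sign under any of these. For day 3, 319 became 77 (DESeq2), 207 (within chromosomes), 490 (the study's thresholds) and 113 to 272 (1 library left out). The 37 calls shared by both days became 19 with library size only, 3 by DESeq2, 23 with no filter, 21 within chromosomes and 18 to 36 with 1 library left out. The 41 interaction calls became 17 by DESeq2, 592 by the study's thresholds (unadjusted p under 0.05, absolute log2 over 1, mean count over 2) and 9 to 51 with 1 library left out. The 4 called chromosomes became 12 without the 1% of genes with the highest counts, 13 with protein-coding genes only and 3 to 6 with 1 library left out. The share of chromosome 15 was called in all its alternatives, at 0.27 to 0.30 with 1 library left out. The difference in mitochondrial share (0.466 percentage points) ran from -1.02 to 1.43 with 1 library left out, being -1.02 without co-expression replicate 1 and -0.008 without MLL-AF4 replicate 3. The open to closed ratio difference (0.26) ran from 0.23 to 0.31 with 1 library left out and was 0.12 with keratin-associated protein genes as closed genes. The cause of these changes was not tested.

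Same-numbered libraries of the 2 groups did not deviate together (correlations of 0.015, 0.006 and -0.022 across 6105 genes), so the numbers do not pair them. With the replicate block the count was 182, of which 179 were among the 206, with 299 on day 3, 37 shared and 32 for the interaction, 3 chromosomes called, and 232 for the block with only the libraries of the contrast, an alternative added after seeing the data. For single genes, 810 of the alternative values kept their side of the threshold, 47 lost the call, 6 gained it and none changed sign. Low depth limits sparse genes most: in the shallowest library the median tested gene had 13 counts.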

Other observations

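Further genes outside the 4 stretches were called on day 28, and those named here were picked after their values were seen. Each gene named in this section lost its call under DESeq2 and without at least 1 of the 6 libraries. HOTAIR, the antisense RNA gene of the HOXC cluster, was higher in co-expression cells (25.6 ± 0.48 against 14.4 ± 3.3 CPM, SD, n = 3, log2 0.88 ± 0.24 SE, adjusted p = 0.0332, edgeR), as was RBBP4, a histone chaperone (0.51 ± 0.14). Lower were SMARCA4, the ATPase of the BAF remodelling complex (22.8 ± 3.9 against 38.3 ± 5.6 CPM, -0.68 ± 0.19, adjusted p = 0.0454), UBTF, the factor that opens ribosomal DNA for transcription (-0.52 ± 0.14), BOP1, a ribosome assembly factor (-1.07 ± 0.30), and RNA5-8SN4, a 5.8S ribosomal RNA gene (-0.43 ± 0.11).

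Signalling genes were also among the lower calls. The neuropeptide receptor NPY5R had 2.45 ± 0.51 against 9.50 ± 2.6 CPM (-1.97 ± 0.45, adjusted p = 0.00511, edgeR) and the retinoic acid receptor RARB 10.4 ± 0.43 against 22.9 ± 4.6 CPM (-1.10 ± 0.26, adjusted p = 0.00859). The phosphodiesterases PDE4B (-0.65 ± 0.19) and PDE1C (-1.15 ± 0.32) and the adrenergic receptor ADRA1B (-1.26 ± 0.35) fell as well. CALCA, the calcitonin gene, rose (15.9 ± 4.1 against 5.19 ± 2.3 CPM, 1.60 ± 0.34). These genes were not grouped in advance and no list of them was tested.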
